A study of Mus musculus with 9 samples.

Results

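Processed-transcript lncRNAs are long noncoding RNAs that the GENCODE annotation lists under the gene type processed_transcript, a mixed class of mostly spliced loci to which no open reading frame was assigned. Of 60108 transcripts in the table, 396 belonged to 238 genes of this type in GENCODE M21. Of these, 12 rows of 3 genes known as miRNA hosts were left out by name, and 15 had a mean under 0.1 FPKM over the 9 libraries (2 of them at 0 throughout), which left 369 transcripts of 229 genes. The 24 transcripts of the 8 snoRNA host genes (Gas5 and the genes whose symbol starts with Snhg) are described apart from the 345 transcripts of the other 221 genes. Just inside the minimum stood 2010204K13Rik row 2 of 3 (mean 0.102 FPKM), 1110018N20Rik row 2 of 3 and Gm10863 row 2 of 2 (both 0.103 FPKM). Just outside it stood R74862 row 1 of 3 (0.0984 FPKM), Gm9989 (0.0921 FPKM) and Anxa13 (0.0817 FPKM). FPKM are fragments scaled to transcript length and to library size, so levels can be compared between transcripts. Rows carry a gene ID but no transcript ID, and a transcript is therefore named by its row within its gene.

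The libraries came from whole lungs of male C57BL/6 mice, aged 6 to 8 weeks in the study as a whole, with 3 mice in each of 3 groups of a model of ventilator-induced lung injury (VILI). Controls were anaesthetised with ketamine and xylazine and intubated but never ventilated. Mice of both VILI groups were anaesthetised with the same drugs, and anaesthesia was maintained with more of them. They were also given 4 hours of ventilation with tidal volumes of 20 ml/kg under the muscle relaxant pancuronium. Their lungs were taken 0 or 6 hours later, here called 0 hours and 6 hours. How long controls were anaesthetised is not stated. Ventilation, relaxant and any difference in anaesthesia cannot be told apart in this design, and the labels name no engineered allele.

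A snoRNA host gene is transcribed and spliced like an mRNA gene, but its best known products lie in the introns: small nucleolar RNAs (snoRNAs) are trimmed out of them and guide the methylation (C/D box class) or pseudouridylation (H/ACA class) of ribosomal RNA. Many spliced host RNAs are degraded by nonsense-mediated decay, so that host and snoRNA levels need not move together. In the same way several lncRNA genes contain miRNA hairpins, which are cut out of the primary transcript. FPKM here measure the long transcripts, and neither snoRNAs nor mature miRNAs were measured.

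The small RNAs inside these genes are shown first. The hosts were set apart by a symbol that stands for snoRNA host gene, or as Gas5, and the genes left out by name are miRNA hosts, so nested small RNAs are in part a matter of that choice. In GENCODE M21 (GRCm38), all 8 host genes and 9 of the other 221 genes enclose at least 1 snoRNA gene on the same strand. Snhg14, an imprinted locus on chromosome 7, encloses 208 of them, Gas5 encloses 10, Snhg1 8 and the remaining hosts 1 to 3. Among the other genes, Zfas1 encloses 3 and 1110038B12Rik 2. Some C/D snoRNAs of genes that are described in detail further on are printed from the GENCODE transcripts, with the C box TGATGA and the D box CTGA, the motifs bound by the core proteins of the particle, in capitals. Snord78 (in Gas5) and Snord22 (in Snhg1), also read out, hold the D box but no TGATGA in the window searched and are not printed.
Snord47 (in Gas5, chr1:161038082-161038158, + strand): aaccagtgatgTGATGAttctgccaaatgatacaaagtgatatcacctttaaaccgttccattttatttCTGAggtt
Snord50a (in Snhg5, chr9:88521529-88521600, − strand): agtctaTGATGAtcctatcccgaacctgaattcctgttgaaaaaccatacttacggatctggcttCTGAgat
Snord50b (in Snhg5, chr9:88521797-88521868, − strand): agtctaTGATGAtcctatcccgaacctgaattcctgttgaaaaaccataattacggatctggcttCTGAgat
Snord12 (in Zfas1, chr2:167065276-167065365, + strand): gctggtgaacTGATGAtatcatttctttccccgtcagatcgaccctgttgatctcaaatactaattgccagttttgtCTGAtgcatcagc
Snord52 (in 1110038B12Rik, chr17:34950952-34951017, − strand): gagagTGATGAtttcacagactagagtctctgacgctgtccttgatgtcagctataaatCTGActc

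The pair in Snhg5 has the same length of 72 bases and differs by 1 substitution, C50A, counted from the 5′ end of Snord50a. TGATGA within 25 bases of the 5′ end together with CTGA within 25 bases of the 3′ end, searched on the transcript strand, was found in 213 of the 250 snoRNA genes nested in these lncRNA genes (85.2%) and in 321 of all 1558 annotated snoRNA genes (20.6%). Most of the 250 lie in Snhg14. A pyrimidine-rich start, here a C followed by at least 4 bases that are C or T within 5 bases of the RefSeq start (GRCm38.p6), was found in 3 of 8 host genes (37.5%) and in 5718 of 27025 genes with a RefSeq promoter (21.2%). These letters are a description and not measured sites.

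No host encloses a gene annotated as miRNA (Mir5117, in Gas5, is typed as a snoRNA), whereas 11 of the other genes do, not counting those left out by name. Some mature miRNAs of the genes described further on are printed from RefSeq (GRCm38.p6), with the seed (bases 2 to 8), which pairs with target mRNAs, in capitals.
miR-100-5p (in 3110039I08Rik, chromosome 9): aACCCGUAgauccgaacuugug
miR-99a-5p (in Mir99ahg, chromosome 16): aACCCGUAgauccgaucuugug
miR-125b-5p (in 3110039I08Rik and in Mir99ahg): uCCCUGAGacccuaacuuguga
let-7c-5p (in Mir99ahg, chromosome 16): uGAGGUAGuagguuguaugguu
miR-181a-5p (in Gm4258, chromosome 1): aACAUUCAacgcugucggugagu
miR-181b-5p (in Gm4258, chromosome 1): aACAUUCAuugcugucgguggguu
miR-344-3p (in A330076H08Rik, chromosome 7): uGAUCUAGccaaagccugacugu
miR-6368 (in 2610307P16Rik, chromosome 13): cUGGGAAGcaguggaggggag
miR-29b-3p (in A330023F24Rik, chromosome 1): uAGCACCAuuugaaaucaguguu
miR-29c-3p (in A330023F24Rik, chromosome 1): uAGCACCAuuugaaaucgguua

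3110039I08Rik and Mir99ahg hold paralogous clusters: miR-100-5p and miR-99a-5p share their seed and differ by 1 substitution (A16U, from the 5′ end of miR-100-5p), and miR-125b-5p is the same in both. The miR-181 pair of Gm4258 shares another seed, as does the miR-29 pair of A330023F24Rik. Of the 229 symbols, 170 matched RefSeq, which types 158 as lncRNA, 9 as protein-coding and 3 as transcribed pseudogenes. The class as annotated is therefore not purely noncoding: the 9 genes that RefSeq types as coding, among them the chaperonin subunit gene Cct6a, Zswim6 and Trerf1, hold 22 of the 345 transcripts. The largest exon number of a gene had a median of 6.5 in the 8 hosts and of 4 in the others, and 92 of the 221 other genes start within 1 kb of the start of a coding gene on the opposite strand. Of the 221, 43 overlap a coding gene on the same strand, where reads from shared sequence cannot be told apart.

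The test was limma, run as 1 model of the 9 libraries on log2(FPKM + 0.1) for the 37300 transcripts that averaged at least 0.1 FPKM. A transcript is called where its unadjusted P is under 0.05, the cut-off used in the study. Of all transcripts 0.0509% (0 hours against control), 0.0751% (6 hours against control) and 0.0214% (6 hours against 0 hours) had a Benjamini-Hochberg adjusted p under 0.05, and of the 369 transcripts described here 0 in each. Their lowest adjusted p, in the same order, were 0.42, 0.257 and 0.531 among the hosts and 0.195, 0.148 and 0.501 among the others. All calls below are thus unadjusted, while the p printed beside a log2 fold change (± SE) is limma's adjusted p over all transcripts or genes. Where the call of a gene or transcript given with its adjusted p was lost when 1 library was left out, that library is named as control, 0 h or 6 h with its replicate number, and the range is that of the log2 fold change over the 9 fits that each left out 1 library. All groups hold 3 libraries, and both comparisons with control share the 3 control libraries.

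Markers of cell types differed between the libraries. Summed FPKM of 7 neutrophil markers (S100a8, S100a9, Retnlg, Csf3r, Cxcr2, Mmp8 and Ly6g) was 46.5 to 54.1 in controls, 550.4 to 1006 at 0 hours and 453.5 to 1915 at 6 hours, and all 7 were called higher in both comparisons with control. In whole lung, fewer cells of a type and less RNA per cell cannot be told apart. Replicate 1 at 6 hours stood apart: it had the lowest neutrophil sum of the 6 VILI libraries, an erythroid sum of 311.6 FPKM against 2090 to 3559 FPKM in the other 8, and the highest alveolar macrophage sum (609.4 FPKM against 195.3 to 395.3 FPKM). Some of the results that rest on it are also given without it.

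The snoRNA host genes spanned a wide range of levels. FPKM summed over the rows of a gene averaged 64.2 for Gas5, 25.3 for Snhg8, 22.1 for Snhg3, 16.4 for Snhg1, 10.9 for Snhg5, 3.68 for Snhg17, 3.06 for Snhg15 and 0.519 for Snhg14. The 24 transcripts together summed to 141.4 ± 6.18 FPKM in controls, 158.2 ± 17.1 FPKM at 0 hours and 138.9 ± 4.74 FPKM at 6 hours (mean ± SD, n = 3 each). Median mean FPKM was 2.22 over the 24 host transcripts and 0.76 over the 345 others, and 19 of the 24 against 144 of the 345 averaged at least 1 FPKM.

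**Figure D1:**
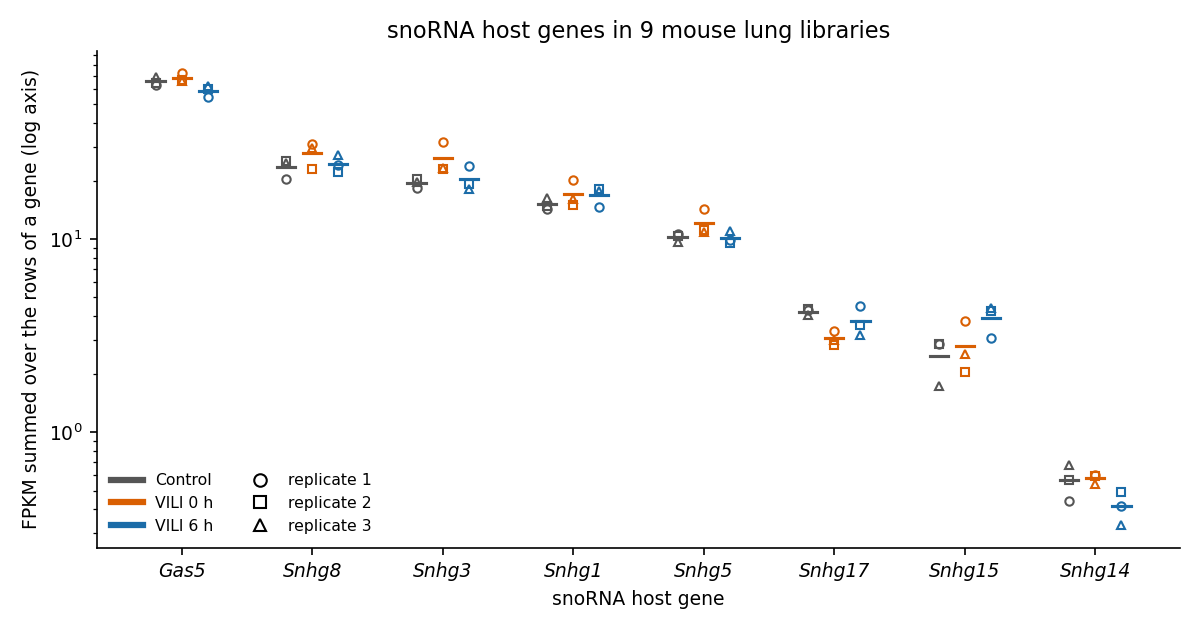
FPKM summed over the rows of each of the 8 snoRNA host genes (log axis) in the 9 libraries; colours give the group, symbols the replicate and short lines the group mean. Gas5 is highest in every library, between 54.4 and 72.2 FPKM, and Snhg14 lowest, between 0.331 and 0.681 FPKM.

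Of the 24 host transcripts, 1 was called at 0 hours against control, where 11.0% of all transcripts were called, 1 at 6 hours (13.2% of all) and 3 at 6 hours against 0 hours (7.4% of all), each of them lower. The counts rest on few transcripts: leaving out 1 library at a time gave 0 to 2, 1 to 3 and 1 to 5. With libraries centred on their median the calls were 2 higher and 0 lower, 2 higher and 1 lower, and 0 higher and 4 lower. Of all transcripts 7.48% and 4.11%, 7.48% and 5.55%, and 3.13% and 4.61% were then called higher and lower. The median log2 fold change of the 24 was −0.01, −0.07 and −0.04, beside −0.08, −0.08 and −0.01 over all transcripts. In the same fit of FPKM summed per gene, 2 of the 8 hosts were called at 0 hours, 1 higher and 1 lower, where 16.2% of 19378 genes were called (6.81% higher and 9.35% lower). At 6 hours 1 host was called, higher (20.4% of genes, 8.17% higher and 12.2% lower), and at 6 hours against 0 hours 2, both lower (10% of genes, 5.06% higher and 4.94% lower). An adjusted p under 0.05 was reached by 0.284%, 0.702% and 0.0% of genes and by 0 of the 8 hosts.

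Gas5, a growth-arrest-associated lncRNA, had sums of 63.1, 64.0 and 69.5 FPKM in controls, 72.2, 66.9 and 66.1 FPKM at 0 hours and 54.4, 59.7 and 62.0 FPKM at 6 hours. All 6 hours values lay below all other values. The gene was called lower at 6 hours against 0 hours (log2 fold change −0.22 ± 0.09, adjusted p = 0.458, lost without control 2, 0 h 1, 0 h 2, 6 h 1 or 6 h 2, range −0.26 to −0.17) and not against control (−0.16, adjusted p = 0.327).

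The rows of Gas5 did not all move alike. Row 2 of 8, the most abundant, held 23.7, 26.8 and 28.5 FPKM in controls, 34.2, 29.4 and 25.6 FPKM at 0 hours and 17.4, 27.4 and 29.1 FPKM at 6 hours, and its groups overlapped in each comparison. Row 7 of 8 was called lower at 6 hours (9.77, 9.12 and 12.1 FPKM) than at 0 hours (13.7, 15.1 and 15.6 FPKM), by −0.52 ± 0.15 (adjusted p = 0.531). Row 6 of 8 was called lower at 6 hours (2.01, 1.34 and 0.976 FPKM) than in controls (2.85, 3.00 and 2.73 FPKM), by −0.99 ± 0.30 (adjusted p = 0.257). Zbtb37, a zinc-finger gene that overlaps Gas5 and starts 427 bases from it on the opposite strand, was called lower as a gene in both comparisons with control (−0.53, adjusted p = 0.139, and −0.46, adjusted p = 0.151, lost without control 2, range −0.58 to −0.37).

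Snhg3, the host of the H/ACA snoRNAs Snora73a and Snora73b, had sums of 18.4, 20.4 and 19.8 FPKM in controls, 31.9, 23.2 and 23.5 FPKM at 0 hours and 23.9, 19.2 and 18.3 FPKM at 6 hours. It stood above control in all 3 libraries at 0 hours (0.41 ± 0.15, adjusted p = 0.227, lost without control 1 or 0 h 1, range 0.26 to 0.49) and was called lower at 6 hours than at 0 hours (−0.35 ± 0.15, adjusted p = 0.485, lost without control 1, control 2, control 3, 0 h 1, 6 h 2 or 6 h 3, range −0.46 to −0.20), where the groups overlapped. Rcc1, which overlaps Snhg3 on the same strand and has its annotated start 81 bases away, was called lower at 0 hours (−0.38, adjusted p = 0.303, lost without any 1 of the 6, range −0.42 to −0.33).

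Snhg17 held 4.31, 4.33 and 4.03 FPKM in controls, 3.35, 2.84 and 3.00 FPKM at 0 hours and 4.52, 3.58 and 3.19 FPKM at 6 hours. The 0 hours libraries lay below all controls (−0.45 ± 0.16, adjusted p = 0.214, lost without control 1, control 2 or 0 h 2, range −0.52 to −0.40). Its row 4 of 4 was the 1 host transcript called in that comparison (−0.53 ± 0.21, adjusted p = 0.419, lost without control 1, control 2, control 3, 0 h 2, 0 h 3 or 6 h 2, range −0.68 to −0.41). Snhg15, host of Snora9, held 2.88, 2.88 and 1.74 FPKM in controls, 3.76, 2.06 and 2.55 FPKM at 0 hours and 3.07, 4.26 and 4.38 FPKM at 6 hours. Its 6 hours values exceeded all controls (0.64 ± 0.28, adjusted p = 0.232, lost without control 3, 0 h 3, 6 h 2 or 6 h 3, range 0.41 to 0.80).

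Snhg8, host of Snora24, and Snhg1 were not called as genes in any comparison, with log2 fold changes between −0.18 and 0.24. Slc3a2, a subunit of amino acid transporters that starts 106 bases from Snhg1 on the opposite strand, had 60.1, 65.5 and 60.3 FPKM in controls, 114, 75.4 and 95.3 FPKM at 0 hours and 78.8, 132 and 128 FPKM at 6 hours. All its VILI values lay above control (0.60, adjusted p = 0.208, lost without 0 h 1, range 0.45 to 0.75, and 0.83, adjusted p = 0.0958). Snhg14 held 0.444 to 0.681 FPKM in controls and 0.331 to 0.494 FPKM at 6 hours and was not called.

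In Snhg5 and Zfas1 single rows were called while the sum was not. The sum of Snhg5 stayed between 9.61 and 14.3 FPKM in the 9 libraries. Within it, row 3 of 3 held 7.71, 8.32 and 2.65 FPKM in controls, 11.4, 9.06 and 8.94 FPKM at 0 hours and 7.12, 3.19 and 3.93 FPKM at 6 hours, and was called lower at 6 hours than at 0 hours (−1.11 ± 0.45, adjusted p = 0.654, lost without 0 h 1, 0 h 2, 0 h 3, 6 h 2 or 6 h 3, range −1.44 to −0.87). Row 2 of 3 held 1.07, 0.341 and 3.81 FPKM, 1.21, 0.719 and 0.364 FPKM and 0.591, 3.48 and 5.63 FPKM in the same order. Row 2 was thus highest in the 3 libraries in which row 3 was lowest, and the gene was not called at 6 hours against 0 hours (−0.24, adjusted p = 0.577).

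Zfas1, a snoRNA host that starts 81 bases from Znfx1 on the opposite strand, had a row 1 of 4 at 4.16, 4.11 and 4.63 FPKM in controls, 0.816, 0.736 and 2.96 FPKM at 0 hours and 2.37, 6.06 and 4.60 FPKM at 6 hours. The row was called lower at 0 hours than in controls (−1.73 ± 0.52, adjusted p = 0.304) and higher at 6 hours than at 0 hours (1.64 ± 0.52, adjusted p = 0.561, lost without 6 h 2, range 1.31 to 2.25). Its sum, from 12.8 to 17.3 FPKM, gave −0.02 (adjusted p = 0.966) and 0.03 (adjusted p = 0.956). How reads of a gene divide over its rows was estimated by Cuffdiff, and the table gives no error for that division.

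**Figure D2:**
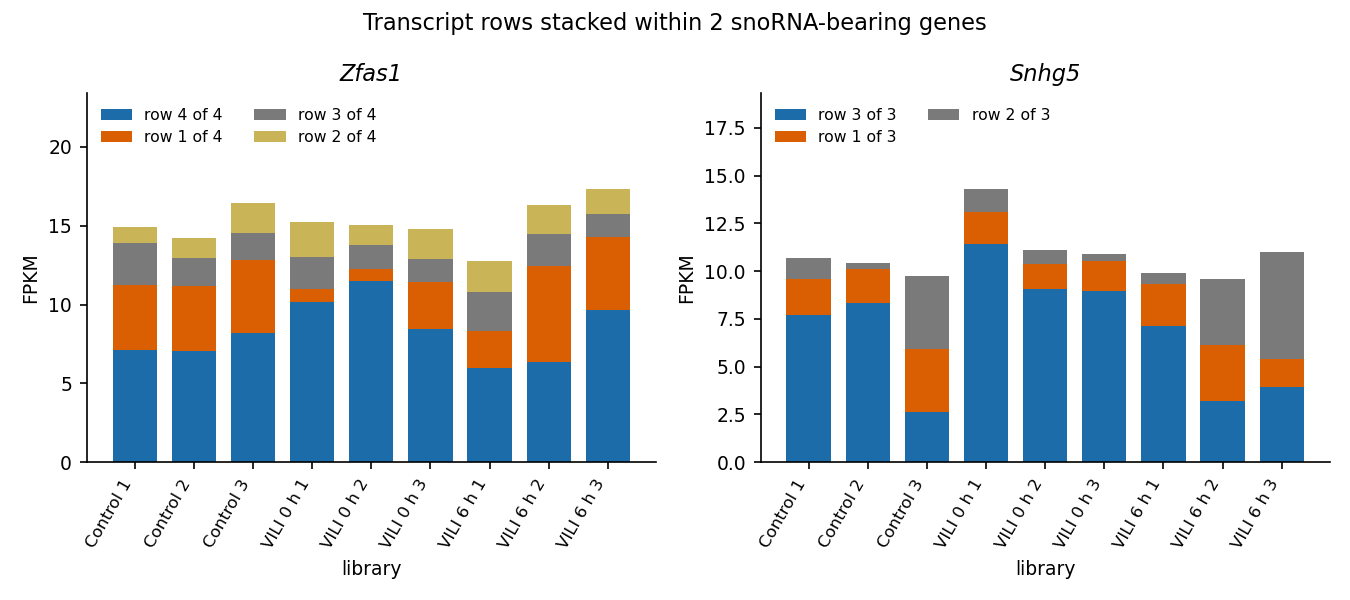
FPKM of the transcript rows of Zfas1 and Snhg5, stacked in each of the 9 libraries, so that the height of a bar is the sum of the gene. The sums stay between 12.8 and 17.3 FPKM for Zfas1 and between 9.61 and 14.3 FPKM for Snhg5, while row 1 of 4 of Zfas1 is small in the first 2 libraries at 0 hours and row 2 of 3 of Snhg5 is large in control replicate 3 and 6 hours replicates 2 and 3.

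Among other snoRNA-bearing genes, 1110038B12Rik had sums of 4.45, 5.54 and 5.53 FPKM in controls, 7.49, 6.30 and 6.44 FPKM at 0 hours and 6.14, 5.13 and 7.22 FPKM at 6 hours. The 0 hours values lay above control (0.38 ± 0.16, adjusted p = 0.288, lost without any 1 of the 6, range 0.28 to 0.43). Gm15832, which encloses Snord89, held 1.78, 2.02 and 1.63 FPKM in controls, 2.40, 3.14 and 4.27 FPKM at 0 hours and 3.13, 2.93 and 5.78 FPKM at 6 hours. It was called higher in both comparisons with control (0.79 ± 0.31, adjusted p = 0.402, lost without control 1, control 3, 0 h 2 or 0 h 3, range 0.58 to 0.98, and 1.02 ± 0.31, adjusted p = 0.258). Rnf149, a ubiquitin ligase gene that overlaps it on the same strand, was called higher too (0.61, adjusted p = 0.251, lost without any 1 of the 6, range 0.58 to 0.63, and 0.94, adjusted p = 0.0958), and reads from sequence that both annotations hold cannot be told apart. Cct6a row 2 of 3, the most abundant of the 345 transcripts (36.2 FPKM), was not called in any comparison.

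Lists of genes around the hosts are given at gene level. Of 8 snoRNP core protein genes, 0 were called at 0 hours against control at an unadjusted P under 0.05, where 16.2% of all genes were called. At 6 hours 2 were called against control (20.4% of all genes were) and 2 against 0 hours (10% were). Fbl, the C/D methyltransferase, was called higher at 6 hours against control (0.35 ± 0.13, adjusted p = 0.182, lost without control 2, control 3 or 6 h 1, range 0.25 to 0.45) and against 0 hours (0.45 ± 0.13, adjusted p = 0.321). Nop58, a C/D core protein, was called higher against 0 hours (0.56 ± 0.18, adjusted p = 0.359), and Nop10, of the H/ACA complex, lower against control (−0.37 ± 0.16, adjusted p = 0.234, lost without control 2, control 3, 0 h 2, 0 h 3, 6 h 2 or 6 h 3, range −0.53 to −0.28). Without 6 hours replicate 1 the calls against control changed, and Nop58 (0.46) was then called higher and Nop56 (−0.26) lower. Of 19 protein-coding snoRNA hosts, most of them for ribosomal proteins and translation factors, with the chaperone gene Hspa8 and the nucleolar genes Ncl and Npm1, 7 were called higher at 0 hours (6.81% of all genes were) and 0 lower (9.35% were), with a median of 0.19 beside −0.07 over all genes. Of these 7 calls, 6 (Eef1b2, Rack1, Tpt1, Rpl17, Rpl23 and Rps3) were lost when 1 library was left out. At 6 hours 1 was called lower against control (12.2% of all genes were), a call also lost. Against 0 hours 7 were called lower (4.94% of all genes were), of which 3 were lost, and 1 higher (5.06% were), which was lost. The ribosomal protein gene Rps12, the 1 of the 19 whose call at 0 hours held in every fit without 1 library, had 112, 97.7 and 122 FPKM in controls, 140, 135 and 175 FPKM at 0 hours and 106, 100 and 127 FPKM at 6 hours (0.44 ± 0.14, adjusted p = 0.172, then −0.43 ± 0.14, adjusted p = 0.363, against 0 hours). Of 10 nonsense-mediated decay factors, Smg6 was called at 0 hours, lower (−0.39, adjusted p = 0.169), where 16.2% of all genes were called. At 6 hours, where 20.4% of all genes were called, Smg6 (−0.36, adjusted p = 0.164, lost without control 1, range −0.46 to −0.29) and Upf3b (−0.30, adjusted p = 0.221, lost without control 1, control 3, 0 h 2, 0 h 3 or 6 h 3, range −0.37 to −0.17) were called lower, and between 0 and 6 hours 0 of the 10.

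Summed FPKM of the other 345 transcripts was 641.9 ± 25.9 FPKM in controls, 532.3 ± 24.7 FPKM at 0 hours and 515.1 ± 78.2 FPKM at 6 hours (mean ± SD, n = 3 each). Controls summed to 625.1, 671.7 and 628.8 FPKM and the 0 hours libraries to 522.7, 560.3 and 513.9 FPKM, without overlap. Replicate 1 at 6 hours, at 604.7 FPKM, lay near control, and the others, at 479.7 and 460.8 FPKM, lay below the other 7. Neutrophil markers moved with these groups. Alveolar macrophage markers summed to 195.3 to 279.6 FPKM in controls and 336.7 to 395.3 FPKM at 0 hours (3 of 5 called higher), and 208.1 to 609.4 FPKM at 6 hours. The 4 B cell markers found summed to 41.1 to 54.6 FPKM in controls, 17.5 to 56.0 FPKM at 0 hours (1 called lower) and 11.4 to 34.3 FPKM at 6 hours (3 called lower). The part of these markers in the result was not tested.

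**Figure D3:**
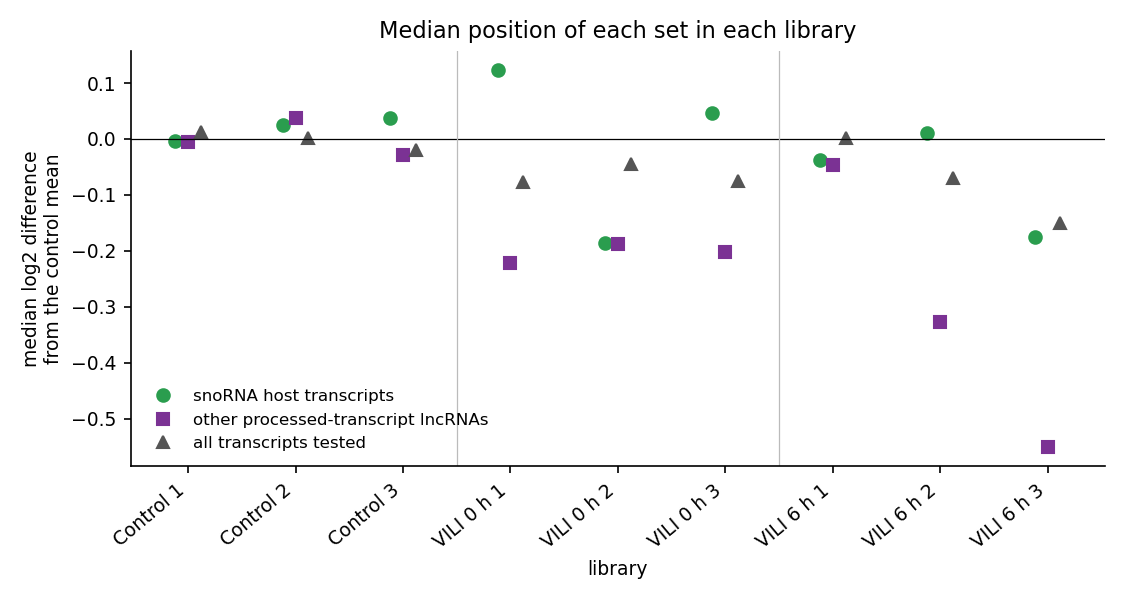
Median log2 difference of each set from its control mean in each of the 9 libraries, for 24 snoRNA host transcripts, 345 other processed-transcript lncRNAs and all 37300 transcripts tested. The other processed-transcript lncRNAs lie at −0.19 to −0.22 at 0 hours and at −0.05, −0.33 and −0.55 at 6 hours, against −0.05 to −0.08 and 0.0019, −0.07 and −0.15 for all transcripts.

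At 0 hours against control, 46 of the 345 were called (13.3%, against 11.0% of all transcripts), 12 higher (3.48%, against 4.71%) and 34 lower (9.86%, against 6.31%), and 67.5% had a log2 fold change below 0 (57.1% of all). Centring libraries on their median moved the median of all transcripts from −0.08 to 0.05. The calls then were 16 higher (4.64%, against 7.48% of all) and 24 lower (6.96%, against 4.11%). Groups did not overlap for 14 higher and 79 lower transcripts, where 8.59% and 15.6% of all transcripts did not (24.2% in all).

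At 6 hours against control, 60 of 345 were called (17.4%, against 13.2% of all), 8 higher (2.32%, against 5.73%) and 52 lower (15.1%, against 7.51%). Median log2 fold change was −0.29, beside −0.08 over all transcripts, and −0.20 beside 0.01 after centring. Groups did not overlap for 10 higher and 61 lower transcripts, against 7.36% and 11.2% of all (18.6% in all). Leaving out 6 hours replicate 1 raised the calls to 107, 11 higher and 96 lower (27.8% lower, against 15.3% of all), and 29 of the 345 then had a limma adjusted p under 0.05, as had 2089 of all 37300 transcripts. Leaving out 6 hours replicate 3 lowered them to 29, 6 higher and 23 lower (8.41% in all, against 9.43% of all transcripts, and 6.67% lower, against 4.93%). Without control replicate 2 or 3 there were 35 or 33, and the shares of all transcripts in those fits are not given.

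At 6 hours against 0 hours, 23 of 345 were called (6.67%, against 7.4% of all), 8 higher (3.82% of all were) and 15 lower (3.58% of all were). Groups did not overlap for 9 higher and 22 lower transcripts, against 6.09% and 5.3% of all (11.4% in all). Without 6 hours replicate 1 there were 52 calls, 9 higher and 43 lower (15.1% in all, against 14.3% of all transcripts, and 12.5% lower, against 8.31%). Without replicate 3 there were 18, 11 higher and 7 lower (5.22%, against 6.88% of all transcripts). Over all fits that left out 1 library the calls ranged from 13 to 52. Erythroid markers summed to 2090 to 2655 FPKM in controls, 3179 to 3559 FPKM at 0 hours and 311.6 to 2457 FPKM at 6 hours. Of the erythroid, alveolar macrophage and B cell markers, 3 of 4, 3 of 5 and 1 of 4 were called lower at 6 hours than at 0 hours, and their part in these counts was not tested.

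Other noncoding types are given beside these counts without a test of the difference. Of 453 lincRNA transcripts at the same minimum, 7.95% and 17.0% were called lower at 0 and at 6 hours against control, and of 445 antisense transcripts 7.64% and 11.2%. Their medians were −0.15 and −0.30 and −0.14 and −0.31, beside −0.21 and −0.29 for the 345. With libraries centred on their median, the 0 hours medians were −0.03 (lincRNA), −0.01 (antisense) and −0.09 (the 345). At 0 hours 7.06% of lincRNA transcripts were then called higher and 5.74% lower, and 5.62% and 6.52% of antisense. Without 6 hours replicate 1, 28.7% of lincRNA and 23.4% of antisense transcripts were called lower at 6 hours. Without replicate 3 at 6 hours these shares were 8.17% and 5.39%. An exact 0 in at least 1 library occurred in 55 of the 369 transcripts.

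**Figure D4:**
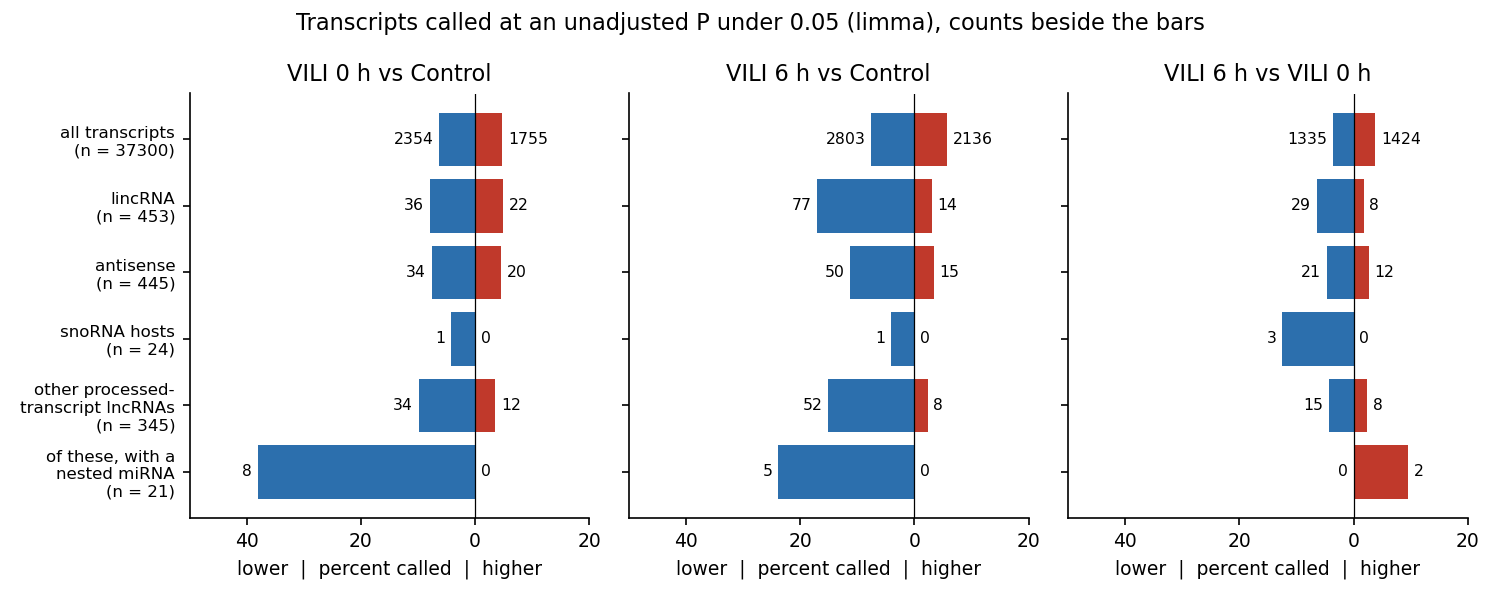
Percent of transcripts called at an unadjusted P under 0.05 (limma) in the 3 comparisons, lower to the left and higher to the right of 0, with the counts beside the bars, for all transcripts, lincRNA, antisense, snoRNA host and other processed-transcript lncRNAs and those with a nested miRNA gene. In both comparisons with control the lower bars exceed the higher bars in each of these 6 sets, and 8 of 21 transcripts with a nested miRNA gene are called lower at 0 hours. The fit shown is not centred. With libraries centred on their median, 7.48% of all transcripts were called higher at 0 hours and 4.11% lower, and 7.48% and 5.55% at 6 hours.

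Genes with a nested miRNA held 21 of the 345 transcripts. At 0 hours against control 8 of the 21 were called, all lower (38.1%, against 6.31% of all transcripts called lower), and at 6 hours 5, all lower (23.8%, against 7.51%), with medians of −0.71 and −0.48. Median centring left both counts as they were. Without 6 hours replicate 1 the counts were 9 and 11, where 8.48% and 15.3% of all transcripts were called lower. Without 6 hours replicate 3 they were 10 and 3, where 7.65% and 4.93% of all were. The 21 transcripts come from 11 genes, and rows of a gene share reads. Of the 144 among the 345 transcripts that averaged at least 1 FPKM, 15.3% were called lower at 0 hours and 19.4% at 6 hours.

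Gm4258, which encloses the miR-181a-1 and miR-181b-1 genes at chr1:137898595-138000384, held 4.56, 6.53 and 4.04 FPKM in controls, 1.55, 1.91 and 1.91 FPKM at 0 hours and 4.46, 3.18 and 1.63 FPKM at 6 hours. The 0 hours libraries lay below all controls (−1.42 ± 0.35, adjusted p = 0.232), and the 6 hours libraries overlapped with them (−0.77, not called here and called in the gene-level fit of the same values). A330076H08Rik, at chr7:61930137-61982358 with the miR-344-2 gene, had sums of 8.01, 10.9 and 7.89 FPKM in controls, 3.29, 3.66 and 3.72 FPKM at 0 hours and 5.39, 2.64 and 1.89 FPKM at 6 hours. All 6 VILI libraries lay below control (−1.29 ± 0.32, adjusted p = 0.105, and −1.52 ± 0.32, adjusted p = 0.0675, as a gene), and neither call was lost in any fit that left out 1 library.

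2610307P16Rik, which encloses the miR-6368 gene at chr13:28460034-28885620, had sums of 5.63, 6.95 and 6.15 FPKM in controls, 2.28, 1.78 and 1.59 FPKM at 0 hours and 7.68, 2.46 and 2.03 FPKM at 6 hours. It was called lower at 0 hours (−1.69 ± 0.41, adjusted p = 0.103). At 6 hours the first library was the highest of all 9, and the gene gave −0.86 (adjusted p = 0.273), or −1.44 without that library. Its row 2 of 3 held 4.24, 4.86 and 4.97 FPKM in controls, 2.28, 1.41 and 1.47 FPKM at 0 hours and 2.65, 1.58 and 1.26 FPKM at 6 hours, and had the lowest adjusted p of the class at 0 hours (0.195, −1.42 ± 0.30). It was also called lower at 6 hours (−1.37 ± 0.30, adjusted p = 0.161).

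The long transcripts of both genes that hold the paralogous clusters were called lower at 0 hours as gene sums, and the miRNAs themselves were not measured. Mir99ahg, at chr16:77236317-77773427, had sums of 8.64, 9.56 and 10.2 FPKM in controls, 4.97, 5.55 and 6.58 FPKM at 0 hours and 8.08, 4.95 and 5.08 FPKM at 6 hours, all VILI values below control (−0.73 ± 0.20, adjusted p = 0.125, and −0.67 ± 0.20, adjusted p = 0.126). 3110039I08Rik, at chr9:41327077-41716994, had 5.83, 6.76 and 7.69 FPKM in controls, 2.82, 4.12 and 3.92 FPKM at 0 hours and 5.23, 5.73 and 2.52 FPKM at 6 hours. All VILI values lay below control here too, and the gene was called at 0 hours (−0.89 ± 0.29, adjusted p = 0.191, lost without 0 h 1, range −0.99 to −0.73), while the value at 6 hours was not past the threshold (−0.66, adjusted p = 0.249). Zswim6, which RefSeq types as coding, was called lower at 0 hours as a gene (−0.42 ± 0.12, adjusted p = 0.126).

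For A330023F24Rik, which encloses the miR-29b-2 and miR-29c genes, the sums were 8.45, 8.86 and 8.87 FPKM in controls, 6.89, 8.28 and 11.8 FPKM at 0 hours and 8.75, 11.3 and 12.8 FPKM at 6 hours, with overlapping groups (0.01, adjusted p = 0.993, and 0.31, adjusted p = 0.401). Gm13648, which encloses the miR-200a, miR-200b and miR-429 genes, known for their expression in epithelium, gave −0.49 (adjusted p = 0.525) and −0.48 (adjusted p = 0.442). Gm11613, Gm28373 and Sox2ot, at means of 0.811, 0.534 and 0.220 FPKM, were not called as genes in any comparison. Beside these values, summed FPKM of 5 lung epithelium markers was 36410 to 39850 in controls, 40790 to 43840 at 0 hours and 34680 to 51390 at 6 hours, and that of 4 endothelium markers 669.2 to 697.2, 697.7 to 797.6 and 633.5 to 783.5. The part of these markers and of the neutrophil markers in the lower values was not tested.

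**Figure D5:**
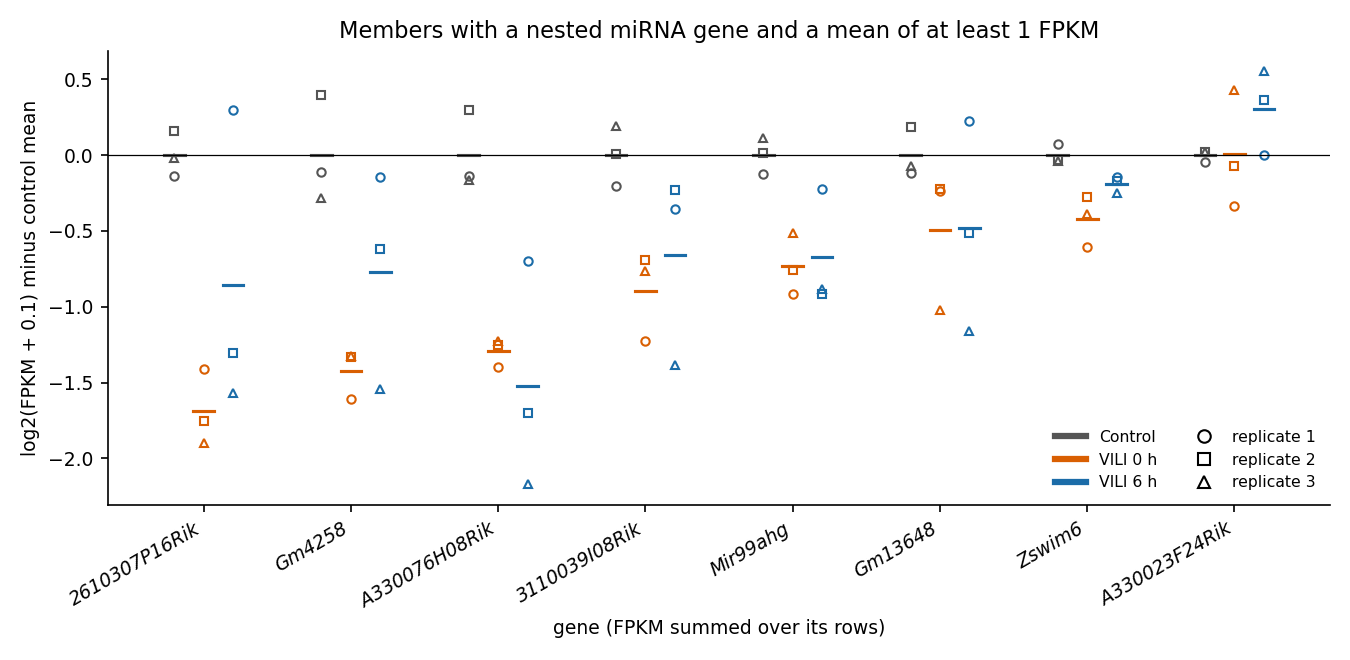
FPKM summed over the rows of a gene, as log2(FPKM + 0.1) minus the control mean, in the 9 libraries for the 8 genes with a nested miRNA gene and a mean of at least 1 FPKM; colours give the group, symbols the replicate and short lines the group mean. The 0 hours libraries of 2610307P16Rik, Gm4258 and A330076H08Rik all lie more than 1 log2 unit below the control mean, and 6 hours replicate 1 is the highest of its group in 6 of the 8 genes.

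Among abundant transcripts without a nested small RNA, Gm20559 row 1 of 2 held 18.0, 16.1 and 18.0 FPKM in controls, 8.01, 9.88 and 8.05 FPKM at 0 hours and 15.0, 6.38 and 7.81 FPKM at 6 hours. No VILI library reached the control range (−1.003 ± 0.28, adjusted p = 0.28, and −0.93 ± 0.28, adjusted p = 0.264). 2610507I01Rik, whose start lies 101 bases from that of the mitochondrial ribosomal protein gene Mrpl55 on the opposite strand, held 17.4, 16.7 and 20.3 FPKM in controls, 9.62, 10.9 and 9.14 FPKM at 0 hours and 12.2, 5.99 and 3.43 FPKM at 6 hours. All VILI values lay below control, and it was called at 6 hours (−1.501 ± 0.38, adjusted p = 0.21) but not at 0 hours (−0.87, adjusted p = 0.46, called in the gene-level fit). Mrpl55 was called in neither (−0.23 and −0.22), but was called lower in both without 6 hours replicate 1 (−0.23 and −0.36). Gm12940 row 1 of 3 was called lower at 6 hours (18.2, 18.4 and 15.0 FPKM) than in controls (20.9, 25.7 and 27.9 FPKM), by −0.52 ± 0.16 (adjusted p = 0.258). Gm12940 overlaps the coding gene Sfpq (mean 60.5 FPKM) on the same strand, so reads from shared sequence cannot be told apart.

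Gm14207, which starts 410 bases from Dll4 on the opposite strand, held 2.90, 3.17 and 3.65 FPKM in controls, 1.68, 1.47 and 1.48 FPKM at 0 hours and 2.71, 0.579 and 0.626 FPKM at 6 hours. It was called lower at 6 hours (−1.58 ± 0.50, adjusted p = 0.274), and the gene-level value went from −1.58 to −2.24 without 6 hours replicate 1. Dll4, the endothelial Notch ligand, held 33.5, 31.9 and 31.5 FPKM in controls, 19.99, 30.3 and 25.3 FPKM at 0 hours and 32.4, 10.5 and 6.73 FPKM at 6 hours (−1.28, adjusted p = 0.175, lost without 6 h 2 or 6 h 3, range −1.93 to −0.80, and −1.93 without that library). In both genes 6 hours replicate 1 lay far above the rest of its group. Over the 92 pairs of a lncRNA gene and a coding gene that start within 1 kb of each other on opposite strands, 11 lncRNAs and 18 partners were called at 0 hours (16.2% of all genes were) and 28 and 26 at 6 hours (20.4% were). Both genes were called in 4 and in 9 of these pairs, in the same direction. How many joint calls unlinked genes would give was not worked out. At 6 hours against 0 hours (10% of all genes) 7 lncRNAs and 10 partners were called, and the 1 pair with both called went in opposite directions. Sources differ on whether strand was kept, and without it reads of overlapping partners cannot be told apart.

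BE692007 row 1 of 2, which overlaps the gene Ms4a6c on the opposite strand, held 2.14, 2.13 and 3.62 FPKM in controls, 1.53, 1.90 and 0.878 FPKM at 0 hours and 0.580, 1.09 and 0.724 FPKM at 6 hours. It was called lower at 6 hours (−1.60 ± 0.37, adjusted p = 0.173). Ms4a6c was called higher, from 7.71, 6.73 and 7.10 FPKM in controls to 20.5, 19.1 and 25.8 FPKM at 6 hours (1.58, adjusted p = 0.106). Trerf1 row 2 of 3, of a gene that RefSeq types as coding, was called lower at 0 hours (0.785, 0.763 and 1.09 FPKM) than in controls (2.72, 2.42 and 1.76 FPKM), by −1.29 ± 0.30 (adjusted p = 0.22).

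Crnde, whose start lies 1505 bases from that of Irx5, had sums of 11.1, 10.9 and 9.71 FPKM in controls, 6.42, 7.19 and 6.26 FPKM at 0 hours and 10.7, 5.07 and 4.32 FPKM at 6 hours, and was chosen after its values were seen. Its 0 hours libraries lay below control (−0.66 ± 0.28, adjusted p = 0.285, lost without any 1 of the 6, range −0.72 to −0.62). At 6 hours it gave −0.76 ± 0.28 (adjusted p = 0.183, lost without control 1, control 2, 6 h 2 or 6 h 3, range −1.15 to −0.51), or −1.15 without 6 hours replicate 1.

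Few named transcripts were higher. Gm16556 held 0.772, 0.148 and 0.339 FPKM in controls, 1.33, 2.49 and 3.38 FPKM at 0 hours and 1.79, 0.865 and 0.978 FPKM at 6 hours. All 6 VILI libraries lay above control (2.36 ± 0.53, adjusted p = 0.212, and 1.46 ± 0.53, adjusted p = 0.319, lost without control 2, control 3 or 6 h 1, range 1.02 to 1.92). E230029C05Rik, whose start lies 260 bases from that of the Polycomb gene Eed, had sums of 1.37, 0.570 and 1.28 FPKM in controls, 1.64, 3.32 and 4.22 FPKM at 0 hours and 2.46, 2.02 and 3.06 FPKM at 6 hours, the VILI values all above control (1.42 ± 0.39, adjusted p = 0.132, and 1.22 ± 0.39, adjusted p = 0.148).

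Tmem134 row 4 of 5 held 0.669, 0.716 and 4.74 FPKM in controls and 5.43, 6.31 and 4.82 FPKM at 0 hours. Control replicate 3 lay near the 0 hours values. The row was called higher (1.95 ± 0.66, adjusted p = 0.348, lost without control 1 or control 2, range 1.49 to 2.82) and the gene sum was not (0.27, adjusted p = 0.417). In 1810026B05Rik, which overlaps the coding gene Chd2 (mean 30.7 FPKM) on the same strand, rows were called in opposite directions at 0 hours. Its row 2 of 3 held 12.6, 14.3 and 13.7 FPKM in controls and 11.5, 11.8 and 10.9 FPKM at 0 hours (−0.25 ± 0.10, adjusted p = 0.435, lost without control 2, control 3, 0 h 1, 0 h 2 or 0 h 3, range −0.30 to −0.21). Its row 3 of 3 held 3.28, 2.20 and 1.86 FPKM and 3.96, 4.52 and 3.79 FPKM (0.75 ± 0.22, adjusted p = 0.287), and the gene sum gave −0.11 (adjusted p = 0.59). Firre rows 2 and 3 of 3, of an X-linked nuclear lncRNA, and 2310009A05Rik, also among the 8 most abundant of the 345, were not called.

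Between 0 and 6 hours, 2610027K06Rik row 2 of 2, whose gene starts 328 bases from the developmental regulator Tbx2 on the opposite strand, was listed at 0.667, 1.91 and 1.89 FPKM and then at 0.452, 0 and 0 FPKM. Its gene sum was 1.28, 2.66 and 2.86 FPKM and 1.997, 1.28 and 0.289 FPKM, with overlap (−1.10, adjusted p = 0.563). B230216N24Rik held 1.25, 1.90 and 1.505 FPKM in controls, 0.579, 0.714 and 0.959 FPKM at 0 hours and 1.44, 0.981 and 1.33 FPKM at 6 hours. It was called lower at 0 hours (−0.96 ± 0.28, adjusted p = 0.287) and overlapped with control at 6 hours. B230216N24Rik lies over the coding gene Pam (mean 103.8 FPKM) on the same strand. Gm20492 went from 1.53, 1.75 and 1.77 FPKM at 0 hours to 1.13, 0.634 and 0.616 FPKM at 6 hours (−1.04 ± 0.43, adjusted p = 0.654, lost without control 3, 0 h 1, 0 h 2, 0 h 3, 6 h 2 or 6 h 3, range −1.30 to −0.91). For 5830408C22Rik row 1 of 2 the values were 1.58, 1.40 and 1.46 FPKM and 1.10, 0.869 and 0.718 FPKM (−0.68 ± 0.25, adjusted p = 0.627, lost without 0 h 1, 0 h 2, 0 h 3, 6 h 2 or 6 h 3, range −0.82 to −0.55).

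Well-known lncRNAs listed for context, of other gene types except Snhg14, are given at gene level. Of 6 genes listed as imprinted lncRNAs, among which Snhg11 is not an established imprinted gene, 3 were called lower at 0 hours (9.35% of all genes were) and 2 at 6 hours (12.2% were), and 0 higher. At 0 hours these were H19, Airn (−0.81, adjusted p = 0.193, lost without 0 h 3, range −0.99 to −0.68) and Snhg11 (−0.56, adjusted p = 0.211, lost without control 1 or 0 h 3, range −0.73 to −0.32), and at 6 hours H19 and Snhg11 (−0.64, adjusted p = 0.139). H19 held 0.569, 1.15 and 1.03 FPKM in controls, 0.190, 0.237 and 0.299 FPKM at 0 hours and 0.380, 0.141 and 0.110 FPKM at 6 hours, all VILI values below control (−1.54 ± 0.40, adjusted p = 0.112, and −1.77 ± 0.40, adjusted p = 0.0738). Of 3 X-inactivation centre genes, Ftx was called lower at 0 hours (−0.59, adjusted p = 0.202, lost without control 2, range −0.65 to −0.49) and Tsix at 6 hours (−1.02, adjusted p = 0.144). Of all genes, 9.35% and 12.2% were called lower in these comparisons. Counts of both lists without 6 hours replicate 1 are not given. Neat1, the scaffold of paraspeckles, held 428, 431 and 349 FPKM in controls and 172, 313 and 336 FPKM at 0 hours (−0.61 ± 0.24, adjusted p = 0.25, lost without control 1, control 2 or 0 h 1, range −0.79 to −0.30), and Malat1 was not called.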

How the data were processed

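The authors deposited 1 FPKM value per transcript and library. They filtered the reads for quality and adapters, mapped them with TopHat2 2.0.9, built transcripts by Scripture and by Cufflinks, and took FPKM from Cuffdiff 2.1.1; Bowtie2 2.0.6 and the build GRCm38 are named in the submitters' processing notes. rRNA-depleted directional libraries are described in the study's methods, a TruSeq kit in the labels. Read counts were not used here, so depth per value is unknown and precision comes from the spread of 3 mice per group, with exact permutation p of 3 against 3 no lower than 0.1. Gene types came from GENCODE M21 (23580 of 23713 Ensembl IDs matched).

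log2(FPKM + 0.1) of 37300 transcripts (mean of at least 0.1) were fitted with limma 3.58.1 (R 4.3.3; eBayes with a trend) with group as the only factor; fold changes of low transcripts are understated. The same fit was made on FPKM summed per gene ID (19378 genes). Python 3.11.15, pandas 2.3.3, numpy 2.4.6 and matplotlib 3.10.9 were used. Named transcripts were all host rows, the 8 most abundant others, per comparison up to 6 rising and 6 falling others with the largest change among called transcripts of at least 1 FPKM without overlap, members of context lists, and coding genes within 5 kb; genes with nested miRNAs or snoRNAs, Crnde and the X-inactivation and nuclear genes of the lists were also described. Members and lists were chosen with earlier results of these data known. Marker sums are FPKM of fixed gene lists. Tested on simulated data of 37300 transcripts for VILI 0 hours vs control, 97.5% of 200 transcripts given a log2 change of 3 had a P under 0.05 and 80% an adjusted p under 0.05, and 5.18% of unchanged ones had a P under 0.05. The 200 were drawn from the better expressed transcripts, and smaller changes were not simulated. The alternatives were pseudocounts of 0.01 and 1, a higher minimum (mean of 1 FPKM), no minimum, libraries centred on their median, a fit of the 6 libraries of a comparison alone, a replicate block, no trend, each library left out and FPKM summed per gene; leaving out transcripts at 0 or of coding genes, and the gene-level alternatives, were added after seeing the data.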

Additional observations from a re-analysis of the deposited data

Results flagged for a closer look

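In the direct test of 6 hours against 0 hours, which asks whether the VILI effects at the time points differ, 3 of 24 host and 23 of 345 other transcripts were called (limma, unadjusted P under 0.05, no adjusted p under 0.05), beside 7.4% of all transcripts. The 8 of them that are among the named transcripts are given here. Lower at 6 hours were Gas5 row 7 of 8 (log2 difference −0.52), Gas5 row 6 of 8 (−0.71), Snhg5 row 3 of 3 (−1.11), Gm20492 (−1.04), 5830408C22Rik row 1 of 2 (−0.68) and 2610027K06Rik row 2 of 2 (−3.04). The last value rests on 2 libraries listed at 0 FPKM and so on the pseudocount, and was −5.24 with a pseudocount of 0.01 and −1.09 with 1. Higher were Zfas1 row 1 of 4 (1.64) and B230216N24Rik (0.67). Gas5 row 7 of 8 and 2610027K06Rik row 2 of 2 were called in each fit that left out 1 library, and the other 6 were not. The Snhg5, Zfas1 and 2610027K06Rik differences were not called in the sum of their genes.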

How the results depend on the processing

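For the named transcripts, 39 pairs of transcript and comparison were refitted under 702 alternatives: 587 kept direction and call, 114 kept only the direction and 1 reversed (1810026B05Rik row 3 of 3 in VILI 0 hours vs control, −0.11 with FPKM summed per gene), and 18 pairs were called in every one. The causes were not tested.

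For snoRNA host transcripts, the count of 1 in VILI 0 hours vs control became 2 with median-centred libraries, with only the 6 libraries compared, with a replicate block and with FPKM summed per gene. The count of 1 in VILI 6 hours vs control became 2 without a filter, with the 6 libraries, with the replicate block and without a trend, and 3 with median-centred libraries. For the other 345 transcripts, a mean FPKM of at least 1 gave 25, 25 and 6 in place of 46, 60 and 23, which is a smaller set of 144 transcripts by construction. Between the VILI groups, 14 were called with only the 6 libraries and 15 without transcripts at 0 in any library. Leaving out 1 library gave 28 to 56, 29 to 107 and 13 to 52 calls among the others and 0 to 2, 1 to 3 and 1 to 5 among the hosts. Highest counts of the others came without VILI 6 hours replicate 1, and the lowest without control replicate 2, VILI 6 hours replicate 3 and VILI 0 hours replicate 2.

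Same-numbered libraries did not deviate together (correlations of −0.159 to 0.026 over transcripts). These values cannot settle whether mice of the same number were handled together, and no pairing was used. With the replicate block 36, 49 and 16 of the others and 2, 2 and 3 of the hosts were called. The share of all transcripts in that fit is not given.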
